A study of Capra hircus with 10 samples.

Results

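The cluster of miR-143 and miR-145 comprised the miRNA of the deposited count tables whose name, without the species prefix, was miR-143 or miR-145 with or without an arm. There were 4 of them among 1804 miRNA, miR-143-3p, miR-143-5p, miR-145-5p and miR-145-3p, and all 4 were among the 490 miRNA tested. All animals were lactating Alpine goats at the lactation peak (48 ± 2 days post-partum) that had received a hay-based ration with concentrate during a pre-experimental period of 2 weeks. Before slaughter, 4 goats kept free access to this ration for 48 h (Control: libraries L01, L04, L06 and L10) and 6 goats had no food for 48 h but free access to water (FD: libraries L02 and L03, L05, and L07 to L09). Each goat gave 1 small RNA library from a piece of whole mammary gland, with 4495512 to 7506955 counts in Control and 5674119 to 9842009 counts in FD libraries. The tissue holds secretory and myoepithelial cells, stroma, vessels and blood cells together.

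A miRNA is a short RNA cut from a hairpin precursor, and it guides the silencing complex to messenger RNA that pair with its seed, bases 2 to 8. The genes of miR-143 and miR-145 are neighbours in mammals and give 1 common primary transcript, whose expression in smooth muscle is driven by serum response factor and its partner myocardin. Both miRNA are abundant in smooth muscle and other mesenchymal cells, where they favour the contractile over the proliferative state, with KLF4 and ELK1 among their known targets. In the mammary gland, contractile proteins of the smooth muscle type are made by the vessel walls and by the myoepithelial cells, which surround the alveoli and squeeze milk out. In the gene table of goat assembly ARS1.2, MIR145 and MIR143 followed each other with 0 genes between them, flanked by CSNK1A1 and IL17B. The count tables rest on another assembly, so no position of the precursors is given.

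The 4 mature sequences of the deposited tables are shown because the seed largely sets which messenger RNA a miRNA pairs with, with the seed in capitals, 5′ to 3′:
miR-143-3p: tGAGATGAagcactgtagctcg
miR-143-5p: gGTGCAGTgctgcatctctgg
miR-145-5p: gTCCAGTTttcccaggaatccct
miR-145-3p: aTTCCTGGaaatactgttctt
The miRNA had 22, 21, 23 and 21 bases in this order, and the 4 seeds differed from each other. The most abundant products came from opposite arms of the hairpins, the 3p arm of miR-143 and the 5p arm of miR-145. No other miRNA of the tables had the seed of miR-143-5p or miR-145-3p, whereas 3 predicted miRNA shared that of miR-143-3p and 2 that of miR-145-5p.

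miR-143-3p was among the most abundant miRNA of the lactating gland. Its normalized read count (deposited count divided by the size factor of the library) was 661191, 890002, 684603 and 653667 in Control libraries L01, L04, L06 and L10. In FD goats it was 560043 in L02, 836731 in L03, 1096160 in L05, 819149 in L07, 790579 in L08 and 641513 in L09. The highest and the lowest value were both in FD goats and the diets overlapped. miR-143-3p took 8.67% of all counts in L02 and 16.4% in L05, where it was the most abundant miRNA, and its rank lay between 1 and 4 in all libraries. By mean normalized count it stood 3rd, between miR-10b-5p (815336 ± 156968, SD, n = 10) and miR-30a-5p (592383 ± 87653, SD, n = 10). It was above miR-10b-5p in 5 and above miR-30a-5p in 7 of 10 libraries, so its place among these neighbours was not fixed. A read covers a whole miRNA, so counts were not divided by length, and differences in ligation between sequences were not measured.

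miR-145-5p, the main product of the partner gene, had a normalized read count of 23254, 32433, 19810 and 37584 in Control libraries L01, L04, L06 and L10. The values of FD goats were 14802 in L02, 41696 in L03, 30491 in L05, 15728 in L07, 31182 in L08 and 21150.3 in L09. FD goats again held both extremes. Its share of the counts ran from 0.229% to 0.641% and its rank from 24 to 39, with a mean level next to those of miR-16a-5p and let-7g-5p, which it exceeded in 4 and 6 of 10 libraries.

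The other arms were much rarer. miR-145-3p, released from the 3p side of the same hairpin as miR-145-5p, had normalized read counts of 1388, 2492, 1560 and 1259 in Control libraries L01, L04, L06 and L10. In FD goats they were 1332 in L02, 2690.3 in L03, 2082 in L05, 1643 in L07, 2428 in L08 and 2099.6 in L09. L04 was high among Control libraries and L02 and L07 were low among FD libraries. Its mean level was next to those of miR-199a-5p and miR-135a, which it exceeded in 4 and 5 of 10 libraries.

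miR-143-5p had normalized read counts of 297.2, 170.7, 91.0 and 208.4 in Control libraries L01, L04, L06 and L10. FD goats gave 125.9 in L02, 123.8 in L03, 244.8 in L05, 205.5 in L07, 107.1 in L08 and 112.1 in L09. Both the highest and the lowest value were in Control goats, and 4 of 6 FD libraries lay close together between 107.1 and 125.9. This arm rested on 65 to 270 counts per library, and its rank moved between 198 and 290. Its mean was next to those of miR-379-5p and miR-101-5p, each of which it exceeded in 4 of 10 libraries.

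The order of the levels was miR-143-3p, miR-145-5p, miR-145-3p and miR-143-5p in each of the 10 libraries. Consecutive means differed by 28.5-, 14.1- and 11.3-fold, and at each step the lowest library of the higher miRNA was above the highest library of the lower one. Together the members took 12.2% of all counts, from 8.92% in L02 to 16.9% in L05. miR-143-3p supplied 96.3% of the members' reads over all libraries (94.4% in L10 to 97.9% in L07), so the summed level of the cluster was nearly that of miR-143-3p alone.

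**Figure D1:**
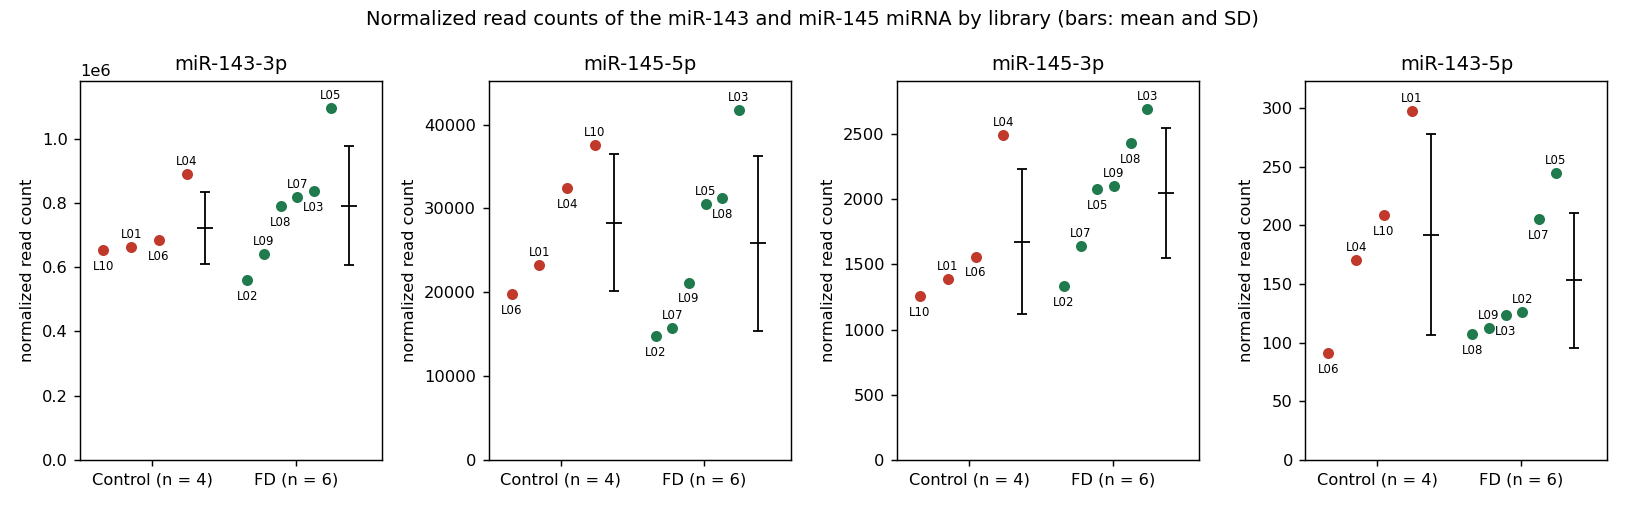
Normalized read counts (y axis, linear, from 0) of the 4 miRNA in Control (red) and FD (green) goats, 1 point per library with its name, and bars for mean and SD. In each panel the diets overlap, and the range of miR-143-5p is the widest relative to its lowest value (3.26-fold) while that of miR-143-3p is the narrowest (1.96-fold).

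The spread between libraries of the same diet holds differences between goats and between library preparations, which cannot be told apart with 1 library per goat. The coefficient of variation between libraries was 15.6% in Control and 23.4% in FD for miR-143-3p, 28.9% and 40.5% for miR-145-5p, 33.4% and 24.3% for miR-145-3p, and 44.6% and 37.6% for miR-143-5p. Counting alone would give at most 0.145%, 0.849%, 3.16% and 12.4%, respectively. On the log2 scale the SD within diets was 0.30 for miR-143-3p, 0.54 for miR-145-5p, 0.40 for miR-145-3p and 0.59 for miR-143-5p, beside a median of 0.34 over all tested miRNA. Among the 123 miRNA with a mean normalized count above 1000, 62.6% varied less than miR-143-3p, 91.9% less than miR-145-5p and 85.4% less than miR-145-3p. In whole tissue, fewer cells of a type and less RNA per cell cannot be told apart.

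Food deprivation for 48 h was compared with feeding to ask whether the members differed between diets. None of the 4 passed the test, their directions were not the same, and the diets overlapped for each. At an adjusted p under 0.1, edgeR called 0 of 4 members, beside 0 of 490 miRNA in all (0.0%), the smallest adjusted p being 0.152 for miR-204-5p. At an unadjusted p under 0.05 it called 0 of 4 members, beside 77 of 490 miRNA (15.7%), and 0 of 4 members had diets that did not overlap, beside 11 of 490 (2.24%). DESeq2 called 0 of 4 members and 27 of 489 miRNA (5.52%) at an adjusted p under 0.1, and limma-voom called 0 of either.

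miR-143-3p had 722366 ± 112531 normalized counts in the 4 Control goats and 790695 ± 185306 in the 6 FD goats (mean ± SD). Its log2 fold change (FD over Control) was 0.11 with a standard error of 0.17, a 95% interval of −0.26 to 0.48 and an adjusted p of 0.739 (edgeR quasi-likelihood test, Benjamini-Hochberg over 490 miRNA). Of the FD libraries, 1 lay above and 2 lay below every Control library.

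miR-145-5p had 28270 ± 8182 normalized counts in the 4 Control goats and 25841 ± 10466 in the 6 FD goats (mean ± SD). The log2 fold change was −0.15, with an interval of −0.76 to 0.47 and an adjusted p of 0.807 by edgeR. For miR-145-3p the means were 1675 ± 559 and 2046 ± 497, with a log2 fold change of 0.27 (−0.23 to 0.78) and an adjusted p of 0.551 by edgeR. Without L04 it was 0.50 (edgeR unadjusted p = 0.0469, adjusted 0.333), and without L10 it was 0.10. miR-143-5p had means of 192 ± 85.6 and 153 ± 57.5, with a log2 fold change of −0.34 (−1.02 to 0.35) and an adjusted p of 0.579 by edgeR. The intervals correspond to FD levels of 0.837 to 1.40 times Control for miR-143-3p, 0.590 to 1.38 for miR-145-5p, 0.852 to 1.71 for miR-145-3p and 0.493 to 1.27 for miR-143-5p.

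Over all tested miRNA the median log2 fold change was 0.00, with 245 positive and 245 negative values, and the members had 2 of each sign.

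**Figure D2:**
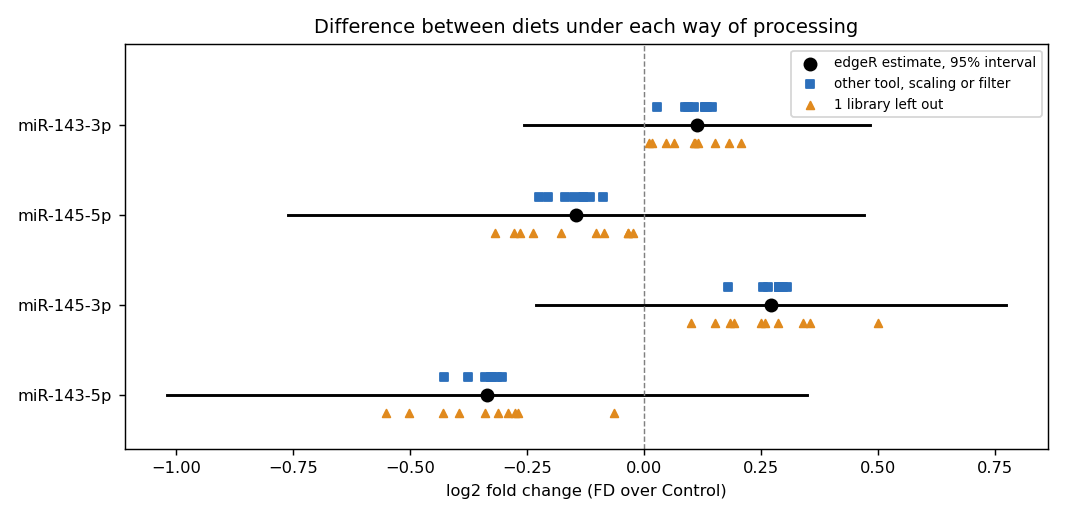
Log2 fold change (FD over Control, x axis) of each member, with the edgeR estimate and its 95% interval (black), the estimates with another tool, scaling or filter (blue squares) and those without 1 library (orange triangles). Each interval includes 0, and each estimate keeps the sign of its member, the smallest being 0.01 for miR-143-3p without L10.

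Ratios within a library need no scaling between libraries, and 3 were compared between diets by exact permutation (two-sided) over all 210 ways to assign the diets. None passed the test. The ratio of miR-143-3p to miR-143-5p was 2225, 5214, 7519 and 3137 in Control libraries L01, L04, L06 and L10, and ran from 3987 to 7383 with a median of 5101 in FD libraries. The FD values lay inside the Control range. The mean log2 difference was 0.39 with a standard error of 0.36 (exact permutation p = 0.319, 0.343 after Benjamini-Hochberg adjustment over the 3 ratios). It was 0.10 without L01 and 0.68 without L06 (exact permutation p = 0.774 and 0.0714).

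For miR-145, the 5p to 3p ratio was 16.8, 13.0, 12.7 and 29.9 in Control libraries L01, L04, L06 and L10. In FD goats it was 11.1 in L02, 15.5 in L03, 14.6 in L05, 9.57 in L07, 12.8 in L08 and 10.1 in L09. L10 stood above all others and 3 FD libraries lay below every Control library. In L10 the 3p arm made up 3.24% of the miR-145 reads (95% Wilson interval 3.07% to 3.42%, counting error only), against 5.63% to 9.46% in the other libraries. The mean log2 difference between diets was −0.49 with a standard error of 0.27 (exact permutation p = 0.0952, adjusted 0.286), and −0.22 without L10. The smallest p that this design can give is 0.00476.

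The ratio of miR-143-3p to miR-145-5p compares the main products of neighbouring genes. It was 28.4, 27.4, 34.6 and 17.4 in Control libraries L01, L04, L06 and L10, and ran from 20.1 in L03 to 52.1 in L07, with a median of 33.1, in FD libraries. The ratio therefore varied 2.99-fold between goats, with L10 at the low and L07 at the high end. The mean log2 difference between diets was 0.29 with a standard error of 0.30 (exact permutation p = 0.343, adjusted 0.343), and 0.10 without L10.

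**Figure D3:**
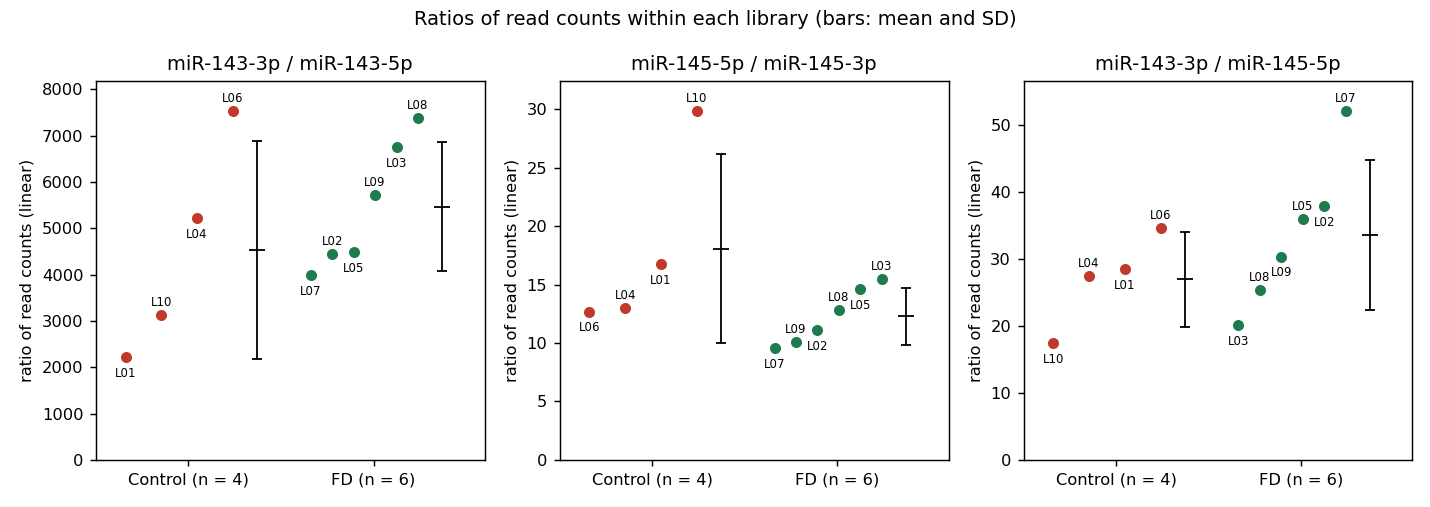
Ratios of deposited counts within each library (y axes, linear, from 0), with miR-143-3p over miR-143-5p, miR-145-5p over miR-145-3p and miR-143-3p over miR-145-5p from left to right, in Control (red, n = 4) and FD (green, n = 6), with mean and SD. The diets overlap in each panel, and L10 stands alone at 29.9 in the middle panel.

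Whether the 4 miRNA varied together between goats was examined over the 10 libraries, as log2(normalized count + 1), in all 6 pairs. No pair passed the adjusted threshold of 0.05. miR-143-3p and miR-145-5p had a Pearson r of 0.472 (permutation p = 0.168, adjusted 0.336) and a Spearman rho of 0.442 (permutation p = 0.203, adjusted 0.407). Within diets r was 0.529, and without L05 and L02, the libraries farthest from the median of miR-143-3p, it was 0.247. Without 1 library it ran from 0.273 (without L02) to 0.634 (without L10).

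The arms of miR-145 had an r of 0.510 (permutation p = 0.134, adjusted 0.336) and a rho of 0.455 (permutation p = 0.190, adjusted 0.407). Within diets r was 0.640, and without L02 and L07, the farthest libraries, 0.342. Without Control library L10 it was 0.846 (permutation p = 0.00672, adjusted over the 6 pairs 0.0403). This was the only 1 of 10 such values, each without 1 library, to pass the threshold. The lowest was 0.360, without L03. The arms of miR-143 had an r of 0.295 (permutation p = 0.409, adjusted 0.490) and a rho of 0.176 (permutation p = 0.631, adjusted 0.756). Their r was 0.363 within diets but −0.07 without L05 and L02, the farthest libraries. Without 1 library it ran from 0.0422 (without L05) to 0.524 (without L01), and it was 0.231 without L02.

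The highest r was that of miR-143-3p with miR-145-3p, 0.644 (permutation p = 0.0442, adjusted 0.265), with a rho of 0.636 (permutation p = 0.0548, adjusted 0.329). It was 0.628 within diets and 0.688 without L05 and L02. miR-145-5p and miR-143-5p had an r of 0.114 (permutation p = 0.746, adjusted 0.746) and a rho of 0.115 (permutation p = 0.756, adjusted 0.756). For miR-145-3p and miR-143-5p r was −0.32 (permutation p = 0.362, adjusted 0.490) and rho −0.37 (permutation p = 0.293, adjusted 0.440). Within diets these last r were 0.0715 and −0.24, and without the farthest libraries 0.199 and −0.16.

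The miRNA most like miR-143-3p over the 10 libraries were ranked by Pearson r of the same log2 values among the other 489 tested miRNA, as a description. The libraries share their scaling, and the median r of all miRNA was −0.02. First came miR-542-3p (r = 0.878), followed by the predicted miRNA chr4_6439 (0.861), miR-27b-3p (0.859) and the goat and chicken rows of miR-133b (0.838 each). chr4_6439 begins with the first 11 bases of miR-143-3p and is described with the other predicted miRNA. The rows of miR-133b, a muscle miRNA, had identical counts in each library, so they are 1 measurement and cannot be split. With scaling to library totals the 5 ranked 1, 3, 2, 8 and 8. In this ranking miR-145-3p stood 49th, miR-145-5p 92nd and miR-143-5p 154th, so the products of the common transcript were not those most like miR-143-3p.

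miR-145-5p had no partner above 0.8, against 10 rows for miR-143-3p, counting both of miR-133b. The first 5 were miR-23a (r = 0.796), miR-17-5p (0.791), miR-424-5p (0.712), miR-196b (0.705) and miR-18a-5p (0.702), and the median r of all miRNA was 0.01. Here miR-145-3p stood 49th, miR-143-3p 64th and miR-143-5p 208th of 489.

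Lists of miRNA known from particular cells, and a list chosen by action on smooth muscle, were set beside the members. In the stromal list (miR-199a, miR-199b, miR-199c and miR-214, which are abundant in fibroblasts and other mesenchymal cells), all 5 miRNA had a positive r with miR-143-3p (median 0.764) and with miR-145-5p (median 0.402). Both arms of miR-214 are among these 5 miRNA, which are therefore not separate observations. Their summed normalized count was 12854, 11636, 10424 and 8499 in Control libraries L01, L04, L06 and L10, and ran from 8564 in L02 through a median of 14028 to 18911 in L05 in FD libraries. L02 and L05 were thus the lowest and highest FD libraries for this sum as for miR-143-3p. The r of the sum was 0.788 with miR-143-3p and 0.350 with miR-145-5p. These r include L02 and L05, the extremes of miR-143-3p, and values without them are not given.

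None of the 5 stromal miRNA passed between diets by edgeR (0 also at an unadjusted p under 0.05, beside 15.7% of all tested miRNA), DESeq2 (beside 5.52%) or limma-voom, and their 5 log2 fold changes were positive with a median of 0.39, beside 0.00 for all tested miRNA. miR-199c-3p, the most abundant, had 7188 ± 1608 normalized counts in the 4 Control goats and 8976 ± 2185 in the 6 FD goats (mean ± SD), a log2 fold change of 0.31 (edgeR adjusted p = 0.457). miR-199b-5p and miR-199a-5p had log2 fold changes of 0.46 and 0.47 (edgeR adjusted p = 0.313 and 0.397). Of the FD libraries, 4 had a stromal sum above every Control library, and the part of stromal cells in the level of miR-143-3p was not tested.

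The smooth muscle phenotype list held other miRNA known to act on the contractile or proliferative state of smooth muscle (miR-1, miR-133a, miR-133b, miR-21, miR-24, miR-26a, miR-31, miR-146a, miR-221 and miR-222). This list was chosen by action and not by cell type, so its values do not mark smooth muscle cells. Of its 18 rows, 14 were tested, counting both rows of miR-133b. Both arms of miR-21, miR-24 and miR-221 were among them, so the 14 are not separate observations. All 14 had a positive r with miR-143-3p (median 0.672) and 13 of 14 with miR-145-5p (median 0.468). Between diets 0 of 14 passed the adjusted threshold by edgeR or limma-voom and 1 by DESeq2 (miR-222-3p, beside 5.52% of all miRNA), with 13 positive log2 fold changes and 1 negative (median 0.19), or 10 and 4 with upper-quartile scaling and 11 and 3 with limma-voom. At an unadjusted p under 0.05 edgeR gave 4 of 14 (miR-146a, miR-221-5p, miR-221-3p and miR-222-3p), beside 15.7% of all tested miRNA.

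miR-26a-5p, the most abundant of the list, had 285267 ± 42175 normalized counts in the 4 Control goats and 338874 ± 43412 in the 6 FD goats (mean ± SD), a log2 fold change of 0.23 (edgeR adjusted p = 0.400). miR-21-5p, known to promote smooth muscle proliferation, had 135178 ± 24029 and 154375 ± 34899 (log2 fold change 0.18, edgeR adjusted p = 0.607). miR-221-3p, which acts against the contractile state, had 1208 ± 338 and 2327 ± 1158 (log2 fold change 0.93, the largest of the tested rows, edgeR adjusted p = 0.269). miR-31-5p had the only negative log2 fold change by edgeR with TMM (−0.11, edgeR adjusted p = 0.845). The only negative r with miR-145-5p was that of miR-146a (−0.13), whose r with miR-143-3p was 0.368. The r with miR-143-3p was 0.473 for miR-26a-5p, 0.626 for miR-21-5p and 0.714 for miR-221-3p.

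The muscle list held miR-1, miR-133a, miR-133b, miR-206, miR-208b and miR-499, and miR-208a was not analysed here. In it, miR-206 and miR-208b were nearly absent. miR-206 had 1 count in 1 library, as did miR-208b, whereas miR-499-5p, a miRNA of striated muscle, had 44 to 125 counts in every library (mean of 93.9 normalized counts). The r of miR-499-5p was −0.02 with miR-143-3p and −0.19 with miR-145-5p, and its log2 fold change was −0.32 (edgeR adjusted p = 0.537). miR-133a-3p, shared by striated and smooth muscle, was the most abundant of this list with a mean of 835 normalized counts, and its r with miR-143-3p was 0.645. For miR-1, found in striated and smooth muscle, r with miR-143-3p was 0.805. Of the 5 tested rows, counting both of miR-133b, 4 had a positive r with miR-143-3p (median 0.805), and the sum of the list had an r of 0.676. These 4 rows also belong to the smooth muscle phenotype list, so this count is not a separate one. The summed list was 989.97 ± 255 in the 4 Control goats and 1015 ± 350 in the 6 FD goats (mean ± SD), and 0 of 5 tested rows passed between diets by edgeR (0 also at an unadjusted p under 0.05, beside 15.7% of all), DESeq2 (beside 5.52%) or limma-voom.

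Epithelial miRNA were abundant in this tissue, with miR-141 at a mean of 123668 normalized counts. Of the 10 tested, the 8 of the miR-200 family (miR-200a, miR-200b, miR-200c, miR-141 and miR-429) had a negative r with miR-143-3p, from −0.80 for miR-200a to −0.43 for miR-141. Both arms of miR-205 had a positive one, 0.617 for miR-205-5p and 0.430 for miR-205-3p. miR-205 is known from basal and myoepithelial cells of the mammary gland, and the miR-200 family from epithelial cells in general. With miR-145-5p, r was 0.584 for miR-205-5p and 0.564 for miR-205-3p, and 7 of 8 values for the miR-200 family were negative (−0.51 for miR-429, 0.00 for miR-200c).

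The summed epithelial list was 229574, 221821, 229172 and 245827 in Control libraries L01, L04, L06 and L10, and ran from 173950 in L08 to 243961 in L09, with a median of 217236, in FD libraries. Its r with miR-143-3p was −0.55. Between diets 0 of 10 passed the adjusted threshold by edgeR, DESeq2 (beside 5.52% of all) or limma-voom, with 2 positive and 8 negative log2 fold changes (median −0.20). miR-200b (−0.34) and miR-429 (−0.34), 2 of 10, had an unadjusted p under 0.05 by edgeR, beside 15.7% of all tested miRNA. miR-203 and miR-375 were not analysed here.

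**Figure D4:**
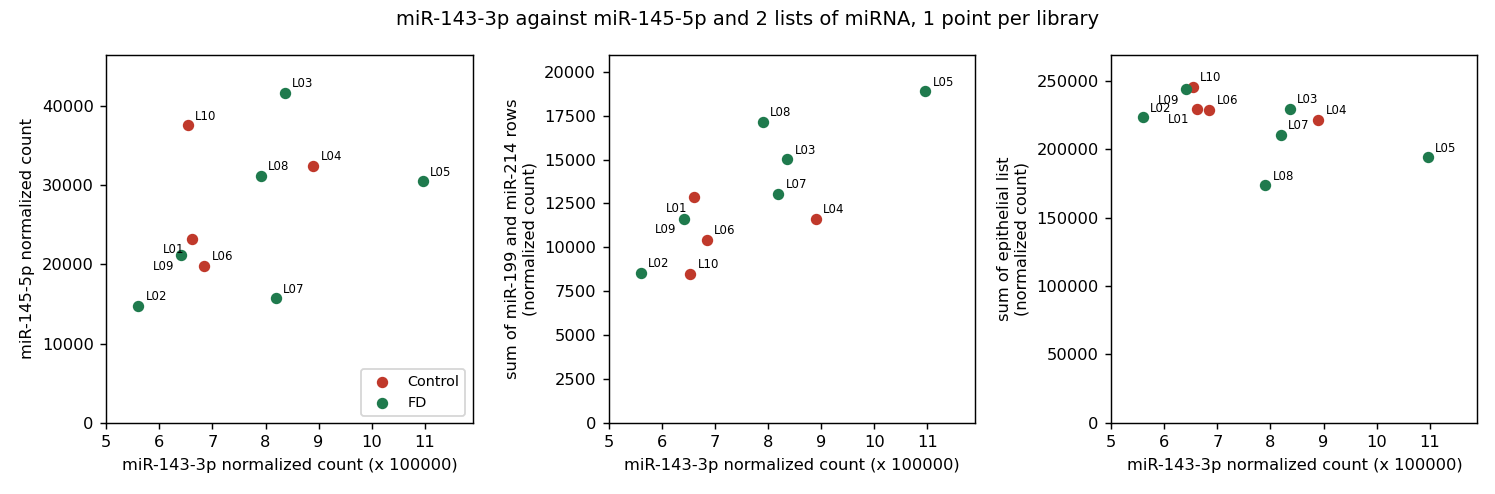
Normalized read count of miR-143-3p (x axis, in units of 100000, from 5) against miR-145-5p, the stromal sum and the epithelial sum (y axes, from 0), 1 point per library, Control in red and FD in green. L05 is at the far right in each panel, high in the stromal sum (18911). The r of miR-143-3p with the sums is 0.788 and −0.55 with all libraries, L02 and L05 included.

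Vessel and blood miRNA were examined in the same way. Both arms of miR-126, an endothelial miRNA, had r near 0 with miR-143-3p (0.0146 for miR-126-3p, 0.129 for miR-126-5p). miR-126-3p was higher in each FD library than in any Control library (17218 ± 2676 and 22489 ± 1088, edgeR adjusted p = 0.195), 1 of 2 arms beside 2.24% of all tested miRNA. DESeq2 called this arm alone (1 of 2, beside 5.52%) and limma-voom called neither. At an unadjusted p under 0.05 edgeR gave 2 of 2 arms, beside 15.7% of all tested miRNA. Their sum was 133853 ± 12350 in the 4 Control goats and 168383 ± 23642 in the 6 FD goats (mean ± SD), with a log2 fold change of 0.37 for miR-126-3p and 0.31 for miR-126-5p. Over the libraries this sum had an r of 0.120 with miR-143-3p.

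The leukocyte list, of which miR-142 was not analysed here, had 0 of 4 past the adjusted threshold by edgeR or limma-voom, 2 by DESeq2 (miR-223-3p and miR-223-5p, beside 5.52% of all miRNA) and 3 at an unadjusted p under 0.05 by edgeR (miR-150, miR-223-3p and miR-223-5p, beside 15.7%). The list had 3 positive log2 fold changes and 1 negative (median 0.93), the negative one being −0.12 for miR-155-5p, its most abundant miRNA with a mean of 5888 normalized counts. Its sum was 10016 ± 1880 in the 4 Control goats and 12952 ± 3971 in the 6 FD goats (mean ± SD), with an r of 0.624 with miR-143-3p. Within the list r was 0.752 for miR-150, a lymphocyte miRNA, −0.01 for miR-155-5p, and 0.148 and −0.16 for miR-223-3p and miR-223-5p, the arms of a myeloid one (median 0.0681). The erythroid list, of which miR-486 was not analysed here, had 0 of 3 past the adjusted threshold by edgeR, DESeq2 (beside 5.52%) or limma-voom and 1 at an unadjusted p under 0.05 by edgeR (miR-451-5p), beside the same 15.7%. Its sum was 5075 ± 1034 and 7004 ± 1018, with an r of 0.00 with miR-143-3p. The part of these cells in the levels of the members was not tested.

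**Figure D5:**
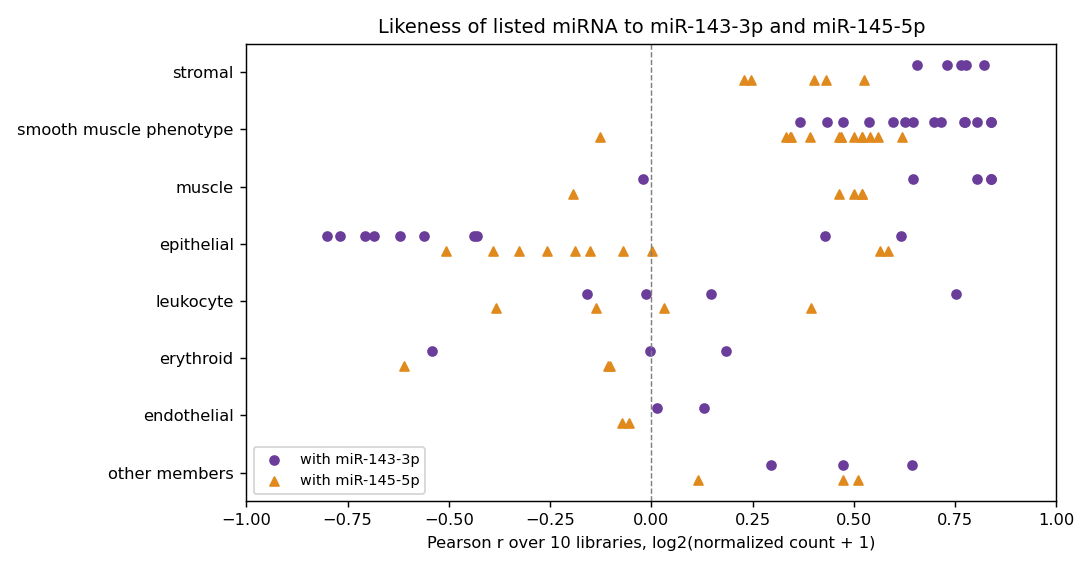
Pearson r (x axis) over the 10 libraries of each tested miRNA of 7 lists, and of the other cluster members, with miR-143-3p (purple circles) and with miR-145-5p (orange triangles), 1 point per miRNA. The circles of the stromal list and of the smooth muscle phenotype list, which was chosen by action, all lie above 0. Their medians are 0.764 and 0.672, and 8 of 10 circles of the epithelial list lie below 0.

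The predicted miRNA that share a seed with a member are shown because they bear on what the counts of the members hold, with the seed in capitals, 5′ to 3′:
chr23_31549: tGAGATGAagcactggctc
chr4_6439: tGAGATGAagctgaagct
chr29_35903: tGAGATGAagcagctgtaa
chr12_17501: gTCCAGTTttcctaggaatt
chr5_6940: gTCCAGTTttcccagga
The first 3 carry the seed of miR-143-3p and match its first 15, 11 and 12 bases, and chr12_17501 matches the first 12 bases of miR-145-5p. chr5_6940 equals the first 17 bases of miR-145-5p, so its reads cannot be told from short reads of that miRNA. On the assembly CHIR_1.0 their precursors were placed at chr23:34416133-34416209, chr4:87181887-87181964 and chr29:37090826-37090901 on the minus strand, and at chr12:20019283-20019351 and chr5:31305856-31305936 on the plus strand. What is annotated at these positions was not analysed here.

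These predicted miRNA were rare. Their miRDeep2 scores, which rise with the evidence for a precursor, were 4, 0, 0.5, 4.8 and 1.4 in the order shown. All met the authors' cut of at least 0, and 0 of 5 reached 10, the top of the range the authors give. The fold of the precursor was marked significant (randfold) for all but chr5_6940. On the opposite arm of any of them 0 reads were found. Over all libraries they had 720, 542, 4, 435 and 53 counts, against 8013938 for miR-143-3p and 283349 for miR-145-5p. In a single library chr23_31549 reached at most 0.0111% and chr4_6439 at most 0.00981% of the reads of miR-143-3p. The highest shares relative to miR-145-5p were 0.271% for chr12_17501 and 0.0484% for chr5_6940, so each row is small beside the member whose seed it carries. The 3 that were tested had log2 fold changes of −0.08 for chr23_31549, 0.15 for chr4_6439 and 0.11 for chr12_17501 (edgeR adjusted p from 0.845 to 0.884).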

How the data were processed

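Adapters were trimmed by the authors (Cutadapt), who retained reads of 17 to 28 nt, aligned these to goat assembly CHIR_1.0 and counted them on known (miRBase 21) and predicted precursors with miRDeep2. The submitters' processing notes name CASAVA 1.8.2. The deposited counts are whole numbers of reads per miRNA and library, and the deposited score values of predicted precursors were computed on all libraries together. The deposited normalized columns were not used.

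Counts were divided by DESeq2 size factors for levels and tested with edgeR (TMM, quasi-likelihood, two-sided, no covariates, Benjamini-Hochberg, threshold 0.1) over the 490 miRNA whose highest normalized count exceeded 28. Ratios were tested by exact permutation and correlations by 100000 permutations, or by all permutations where libraries were left out. Named miRNA were the members, their neighbours by mean level, and the 5 with the highest r with miR-143-3p or miR-145-5p. Also named were miRNA sharing a member's seed, miRNA of the lists, and miR-204-5p for its smallest adjusted p. Values were printed for part of the lists, not by abundance alone. The members and lists were chosen with earlier results of these data known. Software was R 4.3.3, edgeR 4.0.16, DESeq2 1.42.0, limma 3.58.1, Python 3.11.15, scipy 1.17.1 and pandas 2.3.3. Alternatives were another tool, scaling or filter, and each library left out.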

Additional observations from a re-analysis of the deposited data

Results flagged for a closer look

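Within the Control goats, the normalized read count of miR-143-3p in L04 was 890002, while the other 3 libraries lay between 653667 and 684603. Its gap to the nearest of them was 0.869 of the whole Control range, above Dixon's critical value for 4 samples. Of 34 groups of values examined this was the 1 that stood out, and chance sets apart about 1 in 20 such groups. Without L04 the log2 fold change of miR-143-3p was 0.21 in place of 0.11.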

How the results depend on the processing

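The 4 members were fitted again under 18 alternatives (72 fits by edgeR, DESeq2 or limma-voom). None of the 72 had an adjusted p under 0.1 and none changed sign, the smallest being 0.333 for miR-145-3p without L04. None of 36 alternative ratio tests had an adjusted exact permutation p under 0.05 (smallest 0.107). Without 1 library, log2 fold changes ran from 0.01 (without L10) to 0.21 (without L04) for miR-143-3p, from −0.32 (without L03) to −0.02 (without L07) for miR-145-5p, from 0.10 (without L10) to 0.50 (without L04) for miR-145-3p and from −0.55 (without L06) to −0.06 (without L01) for miR-143-5p. The log2 ratio differences ran from 0.10 (without L01) to 0.68 (without L06) for the miR-143 arms, from −0.63 (without L06) to −0.22 (without L10) for the miR-145 arms and from 0.10 (without L10) to 0.43 (without L03) for miR-143-3p over miR-145-5p. Of all miRNA, DESeq2 called 27, edgeR without a filter called 5, and leaving out 1 library gave 0 to 1 (1 without L02), against 0. The r of the miR-143 arms was −0.0747 without the 2 farthest libraries. Without 1 library, r ran from 0.00 to 0.262 for miR-145-5p and miR-143-5p, its sign turning without L06 (−0.00204), and from 0.360 to 0.846 for the miR-145 arms, the highest without L10. The cause of these shifts was not tested. No paired analysis was possible because each library came from a different goat and the labels give no replicate number, litter or batch that would tie a Control to an FD goat.

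With 4 and 6 goats the intervals of the members reached from FD levels of 0.493 times Control (miR-143-5p) to 1.71 times Control (miR-145-3p). Counting error was largest for miR-143-5p, up to 12.4% in the library with 65 counts. PCR duplicates were not removable.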
